A study of Salmo salar with 58 samples.

Results

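The comparison is between livers of Atlantic salmon (Salmo salar) given a high dose of enniatin B (6 libraries) and livers given a high dose of beauvericin (6 libraries). The libraries were chosen by their titles and make up 12 of the 58 libraries of the series. Polyadenylated RNA was sequenced 12 h after acute exposure in vivo. The other liver groups are low enniatin B (6 libraries), low beauvericin (5) and control (6), and the same 5 groups exist for distal intestine. No amount is given for either dose level, and whether the high doses of the 2 toxins were equal is not known. Strain, age and route of exposure are not given in the labels. Whether replicate numbers stand for different fish is not stated either, and the p-values therefore reflect only the spread between these samples.

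Enniatin B and beauvericin are made by Fusarium moulds that grow on cereals, and they reach farmed fish through plant-based feed. Both are ring-shaped molecules built in turn from a hydroxy acid and an N-methylated amino acid. That amino acid is N-methyl-valine in enniatin B and N-methyl-phenylalanine in beauvericin. They are known to insert into membranes and to carry cations across them, and mitochondria are among the sites where this has been studied. The liver receives blood from the gut and carries out much of the metabolism of lipids, amino acids and foreign compounds. The comparison asks whether these related molecules leave different transcript patterns in it.

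All 12 libraries carried a liver profile. Each of 12 hepatocyte markers was measured, and their summed normalized counts were 5925300 to 6624800 in high enniatin B livers and 5078800 to 6446500 in high beauvericin livers. The 8 enterocyte markers summed to 2905 to 4688 in high enniatin B livers and 3070 to 5398 in high beauvericin livers, nearly all of it npc1l1, a sterol uptake protein, at medians of 4096 and 3317 in those groups. Of the other 7, cdx1b and slc6a19 were at 0 in all 12 libraries, cubn and vil1 had medians of 51.4 to 68.5, and the remaining 3 had medians under 10. Depth differed between the groups. Reads assigned to the listed genes were 30.7 M at the lowest, 33.9 M at the median and 35.3 M at the highest in high enniatin B livers, against 35.3, 37.2 and 61.7 M in high beauvericin livers. The mean difference was -10.6 M (exact two-sided permutation p = 0.0043, n = 6 each). Replicates 1 and 3 of high beauvericin held 57.8 and 61.7 M. Without them the difference was -2.79 M (exact two-sided permutation p = 0.019, n = 6 against 4). Values below are normalized counts, meaning reads scaled by 1 factor per library, and log2 differences are enniatin B minus beauvericin ± standard error, on log2 of value plus 2.

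**Figure D1:**
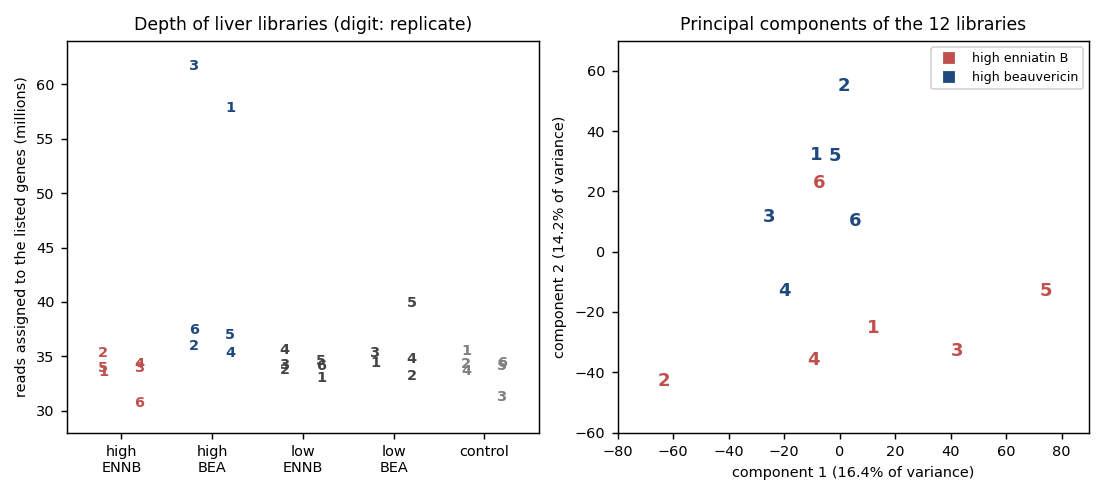
Left, assigned reads (M) in each liver library by group, where each digit is a replicate number; right, the 12 libraries on the first 2 principal components of log2 values, with their shares of the variance. Replicates 1 and 3 of high beauvericin stand at 57.8 and 61.7 M, and on component 1 replicates 2 and 5 of high enniatin B lie at opposite ends (-63.3 and 74.3).

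With limma, no gene separated the toxins at an adjusted p under 0.05 in the fit on all libraries. Of 25157 genes tested, 0 passed (0% of genes tested), and the smallest adjusted p was 0.13. At an unadjusted p under 0.05 there were 2587 genes (10.3%), of which 1308 were higher after enniatin B (5.20%) and 1279 lower (5.08%). edgeR on the recovered reads also called 0 genes, with 2631 at an unadjusted p under 0.05, and voom called 0 with 2800. DESeq2 called 46 of the 22712 genes to which it gave an adjusted p (0.203%), 22 higher and 24 lower. With single libraries left out limma called 0 to 7 genes, 7 of them without replicate 6 of enniatin B. The median log2 difference over all genes was 0.00, and 50.1% were positive. That few or no genes passed is no evidence of equal effects. For 20105 genes (79.9%) the 95% interval excluded a difference of more than 1 log2 unit in either direction, and for 8255 (32.8%) one of more than 0.5. The median distance from the estimate to its limit was 0.42.

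The groups did not overlap at all for 136 genes. In 60 of them every high enniatin B liver lay above every high beauvericin liver (0.239% of genes tested), and in 76 every one lay below (0.302%). Among these, 11 and 29 carried a gene symbol.

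The 10 named genes with the smallest p in each direction were picked from the same contrast, so their values describe it and are no further support. Their limma adjusted p-values were 0.13 to 0.27, 7 of the 20 had groups that did not overlap, and DESeq2 called 9 of them while edgeR called 0.

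**Figure D2:**
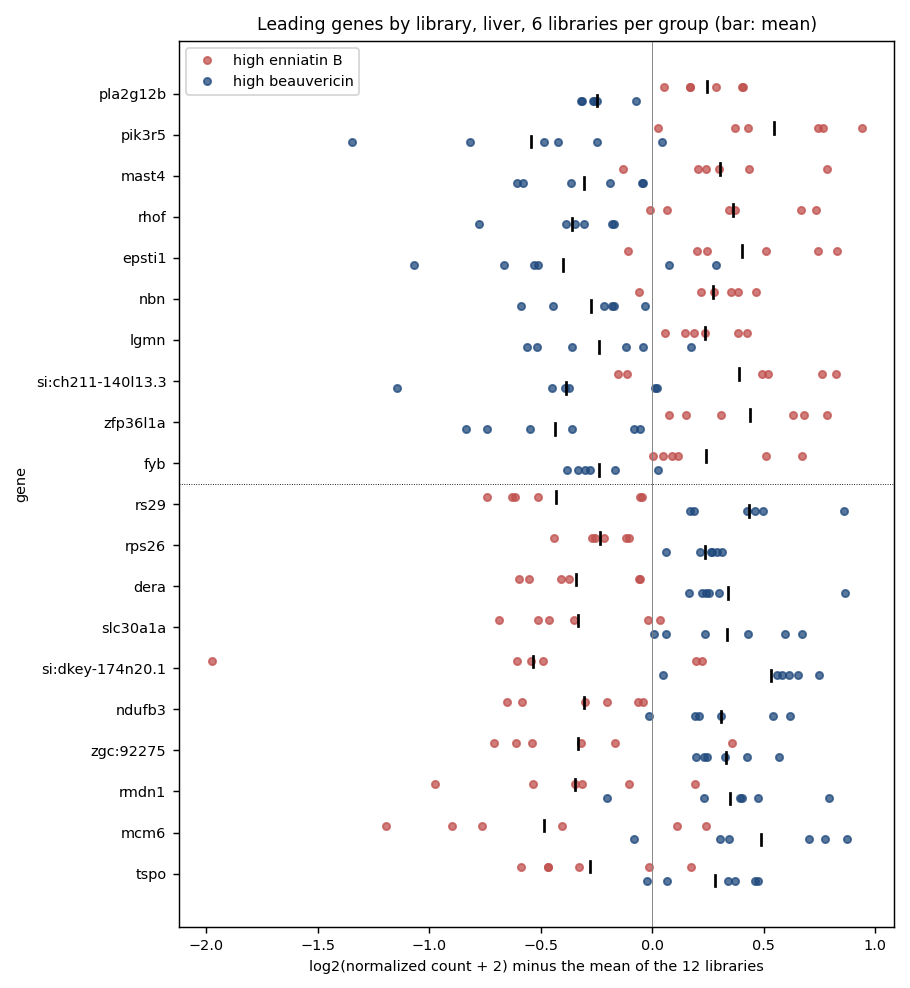
Each of the 20 genes with the smallest p, by library, as log2 of normalized count plus 2 minus the mean of the 12 libraries; enniatin B lies above beauvericin in each row and bars are group means. The first 10 rows are higher after enniatin B and the last 10 lower, and in rs29, rps26, dera, ndufb3, pla2g12b, rhof and zfp36l1a the 6 libraries of one group all lie on one side of the other 6.

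Among genes with lower values after enniatin B, the smallest p was that of rs29 (GeneID 100196089), which encodes a protein of the small ribosomal subunit. It had 4265 normalized counts at the lowest, 4827 at the median and 6909 at the highest in high enniatin B livers, against 8027, 9688 and 12963 in high beauvericin livers. The difference was -0.87 ± 0.16 (limma adjusted p = 0.13), with no overlap between the groups. A separate entry under the symbol rps29 (GeneID 100194514), had 825, 916 and 1664 in high enniatin B livers, against 1346, 1586 and 2132 in high beauvericin livers. Its difference was -0.64 ± 0.18, and the groups overlapped. Many salmon genes exist as near-identical copies, and how reads were split between such entries is uncertain.

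The ribosomal protein gene rps26 (GeneID 106567051) had 9178 to 11613 normalized counts in high enniatin B livers, against 13021 to 15485 in high beauvericin livers. The difference was -0.47 ± 0.10 (limma adjusted p = 0.18), and the groups did not overlap. The complex I subunit gene ndufb3 (GeneID 100286592), part of the first enzyme of the respiratory chain, had 380, 501 and 581 in high enniatin B livers at the lowest, median and highest. In high beauvericin livers it had 591, 715 and 918. The difference was -0.62 ± 0.15 (limma adjusted p = 0.22), again with no overlap.

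The enzyme gene dera (GeneID 100194806), which acts in the breakdown of deoxyribose phosphate, had 534 to 778 normalized counts in high enniatin B livers, against 907 to 1472 in high beauvericin livers. Its difference was -0.68 ± 0.15 (limma adjusted p = 0.18), and the groups were apart. The zinc exporter slc30a1a had a difference of -0.67 ± 0.15, and the outer mitochondrial membrane protein tspo, which binds cholesterol, one of -0.56 ± 0.15. The DNA replication helicase subunit mcm6 had 1057, 1628 and 2860 in high enniatin B livers, against 2291, 3511 and 4435 in high beauvericin livers. Its difference of -0.97 ± 0.25 came with overlapping groups. The remaining lower genes were rmdn1 (-0.70 ± 0.18), zgc:92275 (-0.66 ± 0.17) and si:dkey-174n20.1 (-1.07 ± 0.25).

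Among genes with higher values after enniatin B, pla2g12b (GeneID 106578797) had the smallest p. In mouse it takes part in loading lipid onto the lipoproteins that the liver secretes. It had 2792, 3155 and 3563 normalized counts at the lowest, median and highest in high enniatin B livers, against 2153, 2242 and 2559 in high beauvericin livers. The difference was 0.49 ± 0.11 (limma adjusted p = 0.19), and the groups did not overlap. The small GTPase rhof (GeneID 106564550) had 444 to 746 in high enniatin B livers, against 260 to 397 in high beauvericin livers. Its difference was 0.72 ± 0.18 (limma adjusted p = 0.22), with no overlap.

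The messenger decay factor zfp36l1a (GeneID 106602708) had 2966, 3920 and 4849 normalized counts in high enniatin B livers, against 1575, 2061 and 2708 in high beauvericin livers. Its difference was 0.88 ± 0.24 (limma adjusted p = 0.27), and the groups did not overlap. A separate messenger decay factor entry, tisb (GeneID 100195422), lay on the other side, at -0.28 ± 0.23 with overlapping groups. The entry zfp36l1b had no unadjusted p under 0.05, which does not show that it was unchanged. The higher value is described here for zfp36l1a alone. The regulatory subunit of phosphoinositide 3-kinase gamma, pik3r5, had 56.4, 84.6 and 108 in high enniatin B livers, against 20.6, 39.9 and 57.1 in high beauvericin livers. Its difference was 1.09 ± 0.25, and the groups overlapped by a small margin. The interferon-induced gene epsti1 had a difference of 0.81 ± 0.20, and the adaptor of T cells and platelets fyb one of 0.48 ± 0.13. The lysosomal protease lgmn stood at 0.48 ± 0.13, the DNA break sensor nbn at 0.55 ± 0.14, the kinase mast4 at 0.61 ± 0.14 and si:ch211-140l13.3 at 0.78 ± 0.21. In these bulk samples fewer cells of a type and less RNA per cell cannot be told apart.

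Set beside the control livers, 18 of the 20 genes lay on opposite sides after the 2 toxins. Both comparisons use the same 6 controls, so their values are given side by side and are not independent. The genes were picked for the smallest p between the toxins, which by itself favours control values lying between the 2 groups. The count is therefore no sign of opposite effects. Among the 20, the smallest limma adjusted p was 0.9997 for high enniatin B against control and 0.21 for high beauvericin against control. The log2 difference from control of rs29 was -0.11 after high enniatin B and 0.76 after high beauvericin. For rps26 it was 0.01 after enniatin B and 0.48 after beauvericin, and for dera -0.17 after enniatin B and 0.51 after beauvericin. For rhof it was 0.01 after enniatin B and -0.72 after beauvericin. In mcm6 enniatin B gave -0.56 and beauvericin 0.41, in pik3r5 enniatin B gave 0.53 and beauvericin -0.56, and in epsti1 enniatin B gave 0.66 and beauvericin -0.15. The values of rps26 and rhof after enniatin B were thus close to control, while mcm6 and pik3r5 had values of similar size on either side of it. Over all genes, limma called 0 for high enniatin B against control (0% of 25157; 696 at an unadjusted p under 0.05) and 0 for high beauvericin against control (0%; 2376). edgeR and DESeq2 were not run on these 2 comparisons here, and the difference between the counts was not tested.

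Gene lists of liver functions were then read for how many members were higher or lower, beside 50.1% higher and 10.3% with an unadjusted p under 0.05 over all genes. Higher and lower refer to enniatin B relative to beauvericin, not to control. Values against control use the same controls for both toxins. Members of a list can vary together, so counts of members are not independent observations. With limma no member of any list passed over all genes, and with DESeq2 rps26 was called among the list members (DESeq2 adjusted p = 0.0094). The first group of lists concerns energy and protein production. Of 32 subunits of oxidative phosphorylation, 28 were lower after enniatin B, with a median of -0.16. Besides ndufb3, those with an unadjusted p under 0.05 were uqcrc2b (-0.46 ± 0.13) and cyc1 (-0.33 ± 0.12) of complex III, ndufa2 (-0.44 ± 0.14), ndufv1 and uqcr11. uqcrc2b had 1041, 1149 and 1393 normalized counts at the lowest, median and highest in high enniatin B livers, against 1144, 1708 and 1893 in high beauvericin livers. The means of this list relative to control were -0.16 to 0.02 in the 6 high enniatin B libraries and 0.06 to 0.28 in 5 of 6 high beauvericin libraries, with replicate 1 of beauvericin at -0.15. Mitochondrial stress and biogenesis genes were lower in 4 of 5 (median -0.10), and mfn2 alone had an unadjusted p under 0.05 (-0.26 ± 0.11). Ion transport and calcium genes were lower in 8 of 10 (median -0.12), none with an unadjusted p under 0.05.

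Of 40 cytosolic ribosomal protein genes, 34 were lower after enniatin B, with a median of -0.16. Their median difference from control was -0.02 after enniatin B and 0.12 after beauvericin. An unadjusted p under 0.05 was found for 8, all lower, among them rps26, rps29, rpl38 (-0.33 ± 0.13) and rpl35a (-0.32 ± 0.11). With log2 depth as a covariate the median difference between the toxins was -0.10. List means relative to control overlapped, at -0.22 to 0.13 in high enniatin B libraries and -0.03 to 0.27 in high beauvericin libraries. Proteasome subunits were lower in 8 of 10 (median -0.13). Members of these complexes are known to be made together, so they are not independent observations.

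**Figure D3:**
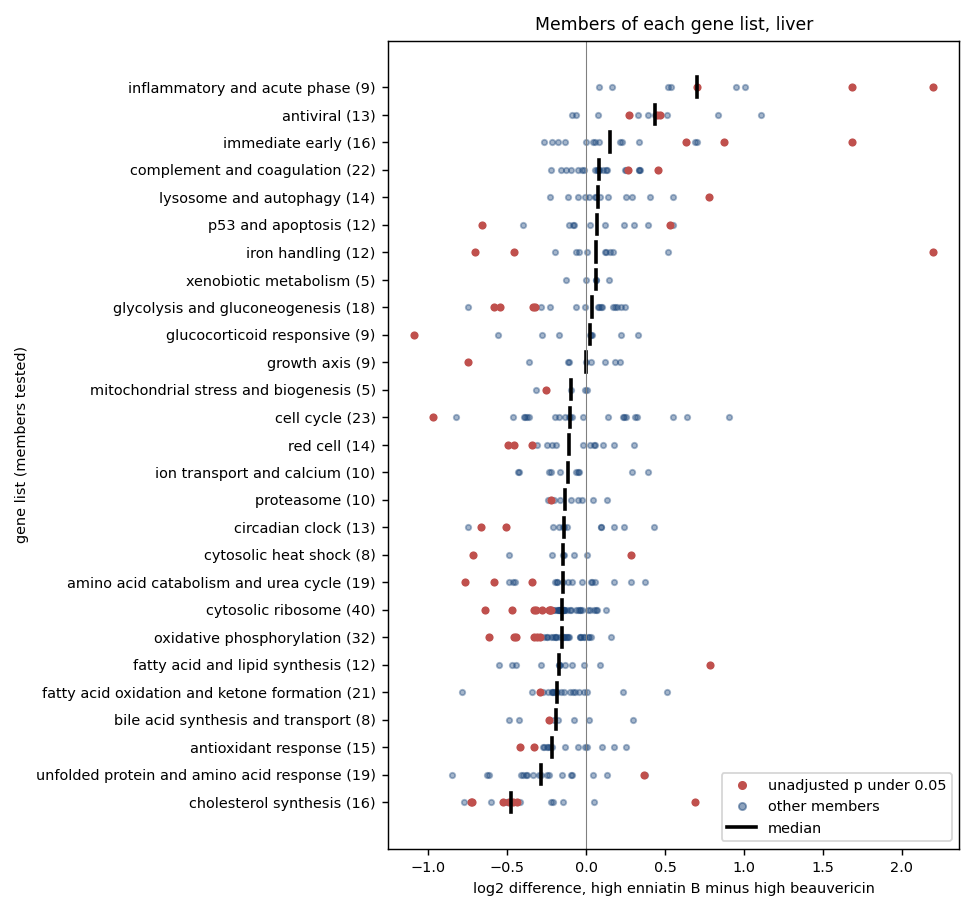
Log2 difference, high enniatin B minus high beauvericin, of every tested member of each gene list (points), with the list median (bar) and the members with an unadjusted p under 0.05 in red. The inflammatory list has the highest median (0.70) and cholesterol synthesis the lowest (-0.48); no member passed over all genes with limma.

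The second group concerns lipid and amino acid metabolism. Of 16 cholesterol synthesis genes, 14 were lower after enniatin B, with a median of -0.48. Their median difference from control was -0.43 after enniatin B and -0.004 after beauvericin. An unadjusted p under 0.05 was found for 6 lower members, among them acat2 (-0.52 ± 0.20), pmvk (-0.46 ± 0.20), mvda, ebp and idi1. The carrier of cholesterol within cells, stard4, was on the other side, with 736, 1401 and 2814 normalized counts in high enniatin B livers, against 751, 881 and 1098 in high beauvericin livers (0.69 ± 0.25). List means relative to control overlapped, at -1.15 to -0.0007 in high enniatin B libraries and -0.46 to 0.35 in high beauvericin libraries. Control libraries lay between -0.64 and 0.46. The list mean was lowest in replicate 5 of enniatin B at -1.15, and without that library the median difference between the toxins was -0.34.

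Fatty acid oxidation genes were lower in 18 of 21 (median -0.18), with 1 at an unadjusted p under 0.05, hadhb, a subunit of the mitochondrial trifunctional protein (-0.29 ± 0.14). The median difference of these genes from control was 0.02 after enniatin B and 0.16 after beauvericin. Fatty acid and lipid synthesis genes were lower in 10 of 12 (median -0.17), and the only one with an unadjusted p under 0.05 was higher, the triglyceride enzyme gene dgat1a (0.78 ± 0.36). The median of this list was -0.27 without the 2 deepest libraries and also without replicate 1 of beauvericin alone. Glycolysis and gluconeogenesis genes were split 9 to 9, yet the 4 with an unadjusted p under 0.05 were all lower, eno1b (-0.58 ± 0.17), gpia (-0.32 ± 0.10), tpi1b (-0.55 ± 0.23) and pgam1 (-0.34 ± 0.15). Amino acid catabolism genes were lower in 13 of 19 (median -0.14), with aldh4a1, an enzyme of proline breakdown, at -0.58 ± 0.19 and the alanine transaminase gpt2 at -0.77 ± 0.32. That median lay between -0.22 and -0.05 with single libraries left out, at -0.22 without replicate 5 of beauvericin and at -0.05 without replicate 3. The median difference of the amino acid catabolism genes from control was 0.07 after enniatin B and 0.25 after beauvericin. Bile acid genes were lower in 6 of 8 (median -0.19, and -0.05 without replicate 4 of enniatin B). Of 5 xenobiotic metabolism genes 4 were higher (median 0.06), and none had an unadjusted p under 0.05. That median was -0.01 without replicate 5 of enniatin B, 0.00 without replicate 1 of beauvericin, 0.10 without replicate 2 of beauvericin and -0.04 with depth as a covariate.

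Stress response lists lay mostly on the lower side. Of 19 genes of the unfolded protein and amino acid response, 15 were lower after enniatin B (median -0.29). The transcription factor xbp1, a regulator of that response, was on the other side (0.37 ± 0.17). It had 14805, 20228 and 38625 normalized counts in high enniatin B livers, against 14284, 16175 and 21210 in high beauvericin livers. Also higher were ddit3 (0.38 ± 0.20), herpud1 (0.13 ± 0.23) and atf3 (0.04 ± 0.41), while psat1 was lower (-0.63 ± 0.34). Both xbp1 and ddit3 were highest in replicate 5 of enniatin B, at 38625 and 1531 normalized counts. In the other enniatin B libraries xbp1 had 14805 to 21745 and ddit3 548 to 775. After beauvericin ddit3 had 490 to 713. chac1, which degrades glutathione, had 657, 839 and 2375 in high enniatin B livers, against 616, 1750 and 5216 in high beauvericin livers, with wide overlap. The list rested in part on replicate 2 of enniatin B, and without it the median was -0.12. It was -0.18 without replicate 5 of beauvericin.

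Antioxidant genes were lower in 11 of 15 (median -0.22, and -0.13 without replicate 6 of beauvericin), with gclc, the catalytic subunit that makes the precursor of glutathione, at -0.42 ± 0.16 and glutathione reductase gsr at -0.33 ± 0.14. gclc had 666, 786 and 1162 normalized counts in high enniatin B livers, against 863, 1174 and 1376 in high beauvericin livers. Cytosolic heat shock genes were lower in 6 of 8, and the p53 and apoptosis list was split 7 to 5 (median 0.07). The median of that list lay between -0.02 without replicate 4 of enniatin B and 0.20 without replicate 3.

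Immune lists lay on the higher side. All 9 tested members of the inflammatory and acute phase list were higher after enniatin B (median 0.70), out of 10 listed in the file. Their median difference from control was 0.32 after enniatin B and -0.45 after beauvericin. By library, list means relative to control overlapped, at -0.65 to 1.54 after enniatin B and -1.20 to -0.05 after beauvericin. The iron hormone hepcidin, hamp, had 881, 5757 and 10068 normalized counts in high enniatin B livers, against 130, 1059 and 2063 in high beauvericin livers. Its difference was 2.20 ± 0.84 (limma adjusted p = 0.39). In replicates 1, 4 and 5 of enniatin B it stood at 9150 to 10068, and replicates 2 and 6 lay within the beauvericin range. Control livers had 1021 to 10649, and the log2 difference from control was 0.02 after enniatin B and -2.18 after beauvericin.

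Other members of that list were highest in 1 library. The NF-kappaB subunit nfkb2 stood at 4082 in replicate 5 of enniatin B, at 376 to 1048 in its other 5 libraries, and at 269 to 781 after beauvericin. The NF-kappaB inhibitor tnfaip3 had 1096 in that replicate, 164 to 328 in the other 5 and 151 to 224 after beauvericin. The transcription factor junb had 1480 there and 571 in replicate 1, 70.4 to 189 in the other 4, and at most 152 after beauvericin (1.68 ± 0.82). The list median was 0.48 without replicate 5, and 0.65 without replicates 2 and 5 together, a setting chosen after seeing the data.

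**Figure D4:**
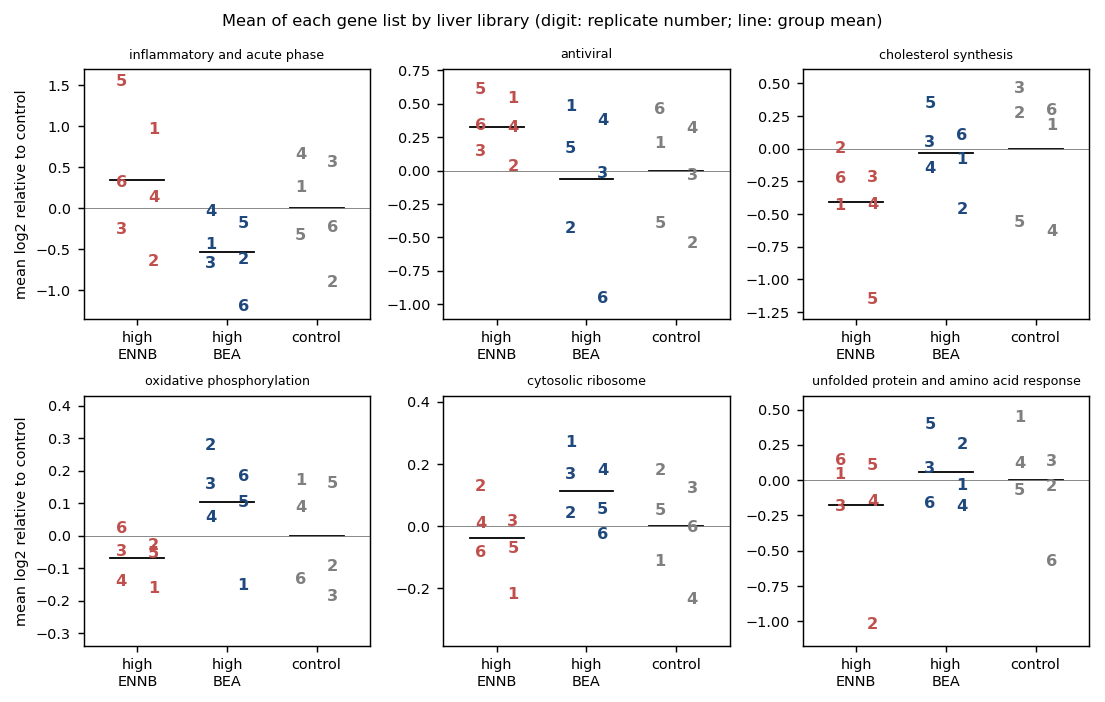
Mean of 6 gene lists in each liver library, as log2 relative to the mean of the control livers, for high enniatin B, high beauvericin and control; digits are replicate numbers and lines are group means. Replicate 5 of enniatin B is highest in the inflammatory list (1.54) and lowest in cholesterol synthesis (-1.15), and replicate 2 is lowest in the unfolded protein list (-1.02).

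Antiviral genes were higher in 11 of 13 (median 0.44). Their median difference from control was 0.33 after enniatin B and -0.07 after beauvericin. By library, list means relative to control overlapped, at 0.03 to 0.61 after enniatin B and -0.96 to 0.48 after beauvericin. The sensor of viral RNA rigi had 867, 1045 and 1159 normalized counts in high enniatin B livers, against 572, 696 and 1135 in high beauvericin livers (0.45 ± 0.15). The transcription factors irf3 (0.47 ± 0.19) and stat1a (0.27 ± 0.13) also had an unadjusted p under 0.05. The antiviral GTPase mx had 31.3, 50.6 and 61.8 in high enniatin B livers, against 2.90, 30.5 and 72.6 in high beauvericin livers, and the groups overlapped. Without replicate 6 of beauvericin the list median was 0.20. Complement and coagulation genes were higher in 15 of 22 (median 0.08), with c1qc at 0.46 ± 0.19 and masp2 at 0.26 ± 0.13. Immediate early genes were higher in 12 of 16 (median 0.15), with zfp36l1a, junb and ccn1 (0.63 ± 0.26) at an unadjusted p under 0.05. That median was 0.35 without the 2 deepest libraries and 0.00 without replicate 6 of enniatin B.

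Markers of other cell types were read beside these lists. The summed normalized counts of 4 neutrophil and macrophage markers were 7302 to 8458 in high enniatin B livers and 6389 to 8207 in high beauvericin livers. Most of that was cd68, at medians of 6887 and 6602 in those groups, so the sums say little about the other members. lyz had 488 to 1124 after enniatin B and 190 to 1034 after beauvericin, and mpx 6.87 to 179 and 23.2 to 156. As a mean of log2 values relative to control, this list stood at -0.92 in replicate 6 of beauvericin, beside 0.17 to 0.63 in its other libraries. The summed counts of 3 T and B cell markers were 93.8 to 277 in high enniatin B livers and 138 to 236 in high beauvericin livers. For 8 red cell markers they were 2362 to 9573 in high enniatin B livers and 2641 to 8850 in high beauvericin livers. For 8 endothelial and stellate markers they were 15707 to 21471 after enniatin B and 13872 to 20341 after beauvericin. The 4 exocrine pancreas markers summed to 14.5 to 129 in high enniatin B livers and 16.7 to 405 in high beauvericin livers. All these ranges overlapped. Their part in the list values was not tested.

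Hormone, blood and iron genes gave mixed values. The glucocorticoid-induced leucine zipper tsc22d3 had 1591, 2600 and 4835 normalized counts in high enniatin B livers, against 3531, 6126 and 7304 in high beauvericin livers (-1.09 ± 0.33, limma adjusted p = 0.30). Replicates 3 and 4 of enniatin B lay inside the beauvericin range. Of the 9 members of the glucocorticoid list 5 were higher, among them cebpb (0.33 ± 0.17) and sgk1 (0.22 ± 0.20). cebpb stood at 8639 in replicate 5 of enniatin B and at 3284 to 5077 in its other libraries, against 2729 to 4337 after beauvericin. Lower like tsc22d3 were cebpd (-0.56 ± 0.29), tisb (-0.28 ± 0.23) and per1b (-0.17 ± 0.21). The list median of 0.02 took the other sign in 12 of 22 alternatives. Of 14 red cell genes 8 were lower and 6 higher, among the higher tal1 (0.30 ± 0.28) and nfe2 (0.17 ± 0.20). The 3 with an unadjusted p under 0.05 were all lower. They were the heme synthesis enzymes cpox (-0.49 ± 0.14) and ppox (-0.34 ± 0.12) and the transferrin receptor tfr1a (-0.46 ± 0.17). Iron handling genes were higher in 7 of 12 (median 0.06, with the other sign in 3 of 22 alternatives). Those with an unadjusted p under 0.05 were tfr1a and tfr2, both lower, and hamp, higher at 2.20 ± 0.84. Transferrin receptor 2, a sensor of iron in hepatocytes, had 136, 159 and 203 as tfr2 in high enniatin B livers, against 135, 296 and 490 in high beauvericin livers (-0.70 ± 0.25). Of 13 clock genes 8 were lower, and bhlhe40 (-0.67 ± 0.23) and dbpb (-0.51 ± 0.20) had an unadjusted p under 0.05. Of 9 growth axis genes 5 were lower (median 0.00), and irs1 (-0.75 ± 0.28) had an unadjusted p under 0.05. Cell cycle genes were lower in 14 of 23 (median -0.10), and mcm6 alone had an unadjusted p under 0.05. That median was 0.05 without replicate 5 of beauvericin and -0.25 without the 2 deepest libraries. The lysosome and autophagy list was higher in 10 of 14 (median 0.07), with the kinase ulk1a at 0.78 ± 0.33.

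Spread within the groups was similar in size. The median over genes of the SD of log2 values was 0.354 in high enniatin B and 0.296 in high beauvericin, against 0.373 in control. On the first principal component of the 12 libraries, which held 16.4% of the variance, replicates 2 and 5 of enniatin B lay at -63.3 and 74.3. On the second, with 14.2%, 5 of 6 enniatin B libraries were below 0 and 5 of 6 beauvericin libraries above it. Replicate 6 of enniatin B and replicate 4 of beauvericin were the exceptions. Median correlations with the other libraries were 0.939 to 0.955.

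At the low dose the same contrast was smaller for all 20 named genes. These were chosen for the smallest p at the high dose, which by itself favours smaller values in any other comparison. The count is therefore no sign of an effect of dose. Low dose differences of the 20 genes lay between -0.29 and 0.60, and 16 of 20 had the sign of the high dose. The share of all genes that kept their sign is not given here. rhof was the closest, at 0.60 ± 0.18, beside 0.72 ± 0.18 at the high dose, while pik3r5 had 0.00 ± 0.26 beside 1.09 ± 0.25. In a direct test of the difference between doses, limma called 0 of 25157 genes (0%), with 953 at an unadjusted p under 0.05, edgeR 0 and DESeq2 5. The 5 were ctgf, a matricellular protein gene (2.04, DESeq2 adjusted p = 0.025), LOC106575807 (2.87), LOC106592182 (1.72), LOC106601729 (1.47) and LOC106576259 (-1.81). The median of the cholesterol list was 0.19 at the low dose, that of the inflammatory list -0.19 and that of the immediate early list -0.50. In tsc22d3 the low dose contrast was -1.63 ± 0.34, and the difference between doses 0.55 ± 0.47. The toxins' doses may differ at each level, so these are values side by side.

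**Figure D5:**
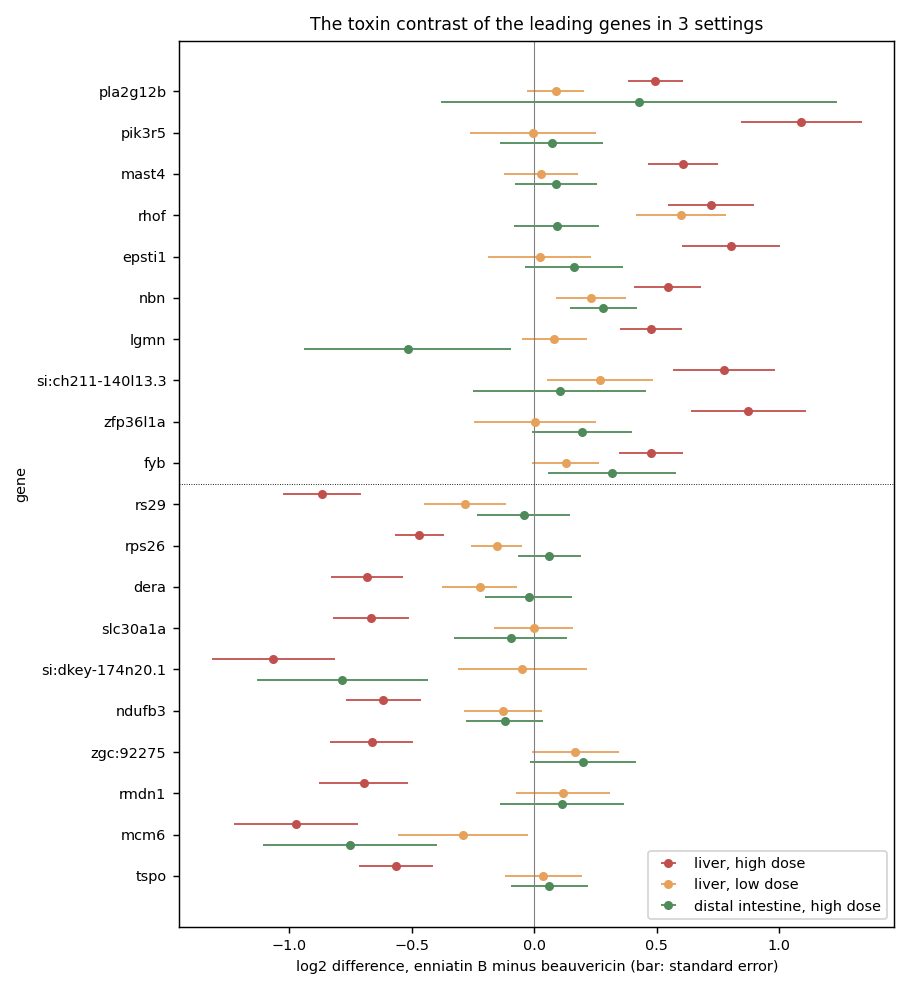
The contrast enniatin B minus beauvericin (log2 ± standard error) of the 20 named genes at the high dose in liver, at the low dose in liver and at the high dose in distal intestine. The genes were chosen on the first of these, and low dose values lie between -0.29 and 0.60.

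In the distal intestine 15 of the 20 genes had the sign they had in liver. These genes were chosen in liver, and same-numbered liver and intestine libraries are not independent, as given below. The count is therefore no further support, and the share over all genes is not given here. mcm6 stood at -0.97 ± 0.25 in liver and -0.75 ± 0.35 in intestine, and rs29 at -0.87 ± 0.16 in liver and -0.04 ± 0.19 in intestine. A direct test of the difference between the tissues called 1 of 24519 genes (0.00408%), with 811 at an unadjusted p under 0.05. That gene, LOC106609634, had 651, 801 and 989 normalized counts in high enniatin B livers, against 297, 454 and 743 in high beauvericin livers (0.78 ± 0.24). In intestine it had 306, 335 and 359 after high enniatin B, against 426, 545 and 599 after high beauvericin, with no overlap (-0.65 ± 0.19). The difference between the tissues was 1.43 ± 0.27 (limma adjusted p = 0.049). Liver and intestine libraries of the same group and number deviated together from their group means. With group and number as a block, a replicate block chosen after seeing the data, the call was lost (1.43 ± 0.27, limma adjusted p = 0.13) and 0 genes passed, with 1219 at an unadjusted p under 0.05. It also did not pass with edgeR, without the 2 deepest libraries or with depth as a covariate, and it passed with DESeq2, voom and TMM scaling. Those 3 also called LOC106609502 and rigi. In intestine rigi had 514 to 633 after high enniatin B and 654 to 930 after high beauvericin.

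Leaving out the 2 deepest beauvericin libraries changed the list of calls but not the direction of any of the 20 genes. These were chosen in the fit that held those libraries, so a kept direction is no further support. Their limma adjusted p-values were then 0.29 to 0.61. Without the 2 libraries limma called 2 genes. LOC106562876 had 15.5 to 53.2 normalized counts in high enniatin B livers, against 0 to 9.26 in the 4 high beauvericin livers kept, with a fitted difference of 3.08 (limma adjusted p = 0.027). In the 2 left out it had 5.93 and 15.8. LOC106576259 had at most 69.8 in high enniatin B livers, against 89.6 to 154 in the 4 kept, at -1.47 (limma adjusted p = 0.035). In the 2 left out it had 81.4 and 71.2. Both are low in reads and are named here after their values were seen. In the same fit rs29 was at -0.75 ± 0.18, rps26 at -0.45 ± 0.12, pik3r5 at 1.25 ± 0.27 and pla2g12b at 0.47 ± 0.13. The medians of the oxidative phosphorylation, cholesterol and inflammatory lists were then -0.22, -0.45 and 0.70.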

How the data were processed

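RNA was extracted with QIAzol and a Qiagen kit, enriched with oligo(dT) and sequenced on a NovaSeq, per the labels' protocols. The authors trimmed reads with Trim Galore 0.4.2, inspected them with FastQC, aligned them with HISAT2, counted them with featureCounts of Subread and used DESeq2 1.18.1, per the submitters' processing notes. For HISAT2 the version, and for the reads the genome build, is not given in the sources used here. The deposited signal is a normalized count for 26239 genes and 58 libraries, and every listed gene averages 21.1 or more over libraries. Each library's factor was estimated from its own values, as the step at which they fall on whole numbers. Scaled back by these fitted factors, 99.9999% of values lay within 0.1 read of a whole number. Symbols came from the Ssal_v3.1 table, used for names alone, in which 24184 GeneIDs matched and 7529 had a symbol other than a LOC number.

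Limma 3.58.1 (R 4.3.3; mean-variance trend, robust) was run on log2 of value plus 2 in all 29 liver libraries, for genes with 10 or more in at least 5 of them. p-values were adjusted by Benjamini-Hochberg over all genes tested, with a threshold of 0.05. The tissue difference used all 58 libraries. Within each high dose group, deviations of same-numbered liver and intestine libraries correlated at 0.175 to 0.294 over 24519 genes, and each liver correlated best with the intestine of its own number. The pairing comes from the data, not the labels, and a fit with that block stands beside the result. edgeR 4.0.16, DESeq2 1.42.0 and voom on the recovered reads, and other scalings, pseudocounts and filters, were alternatives. The scripts were tested on simulated data. Named genes are the 10 higher and 10 lower with the smallest p among those with a symbol, since fewer than 10 passed, up to 4 list members with the smallest p, and any called gene in a count of 5 or fewer. Also named are some, not all, of the other list members with an unadjusted p under 0.05. The libraries and lists were chosen with earlier results of these data known. Members were matched by symbol alone, since no product names were used. A member of the cholesterol synthesis list is not reported here by name.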

Additional observations from a re-analysis of the deposited data

Results flagged for a closer look

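In 108 groups of 6 values examined, 9 held a library far from the other 5, where chance alone marks about 1 in 20 groups of normally distributed values. Gene values were normalized counts without a log, and the groups share libraries and some genes. Whether 9 is more than chance gives was therefore not tested. In high enniatin B livers, replicate 2 had a mean of -1.02 (log2 relative to control) over genes of the unfolded protein and amino acid responses, while the other 5 lay between -0.18 and 0.14. The same replicate had 0.57 over the fatty acid oxidation list, beside -0.17 to 0.10 in the others. Replicate 1 of that group stood at 0.29 over the complement and coagulation list, beside -0.03 to 0.07.

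In high beauvericin livers, replicate 3 had 1472 normalized counts of dera, beside 907 to 996 in the others. Replicate 2 had 2559 of pla2g12b, beside 2153 to 2264, and 131 of si:dkey-174n20.1, beside 187 to 214. It also had -0.29 over the circadian clock list, beside 0.02 to 0.15. Replicate 1 stood at 0.68 over the growth axis list, beside 0.11 to 0.28, and replicate 6 at -0.92 over the neutrophil and macrophage markers, beside 0.17 to 0.63.

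The contrast of the toxins differed between tissues for LOC106609634 by 1.43 on the log2 scale (limma adjusted p = 0.049), at 0.78 in liver and -0.65 in intestine. With liver and intestine paired by group and number the adjusted p was 0.13 (limma).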

How the results depend on the processing

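For genes differing between the high doses in liver (0 with limma), DESeq2 gave 46, the fit without the 2 deepest libraries 2, log2 depth as a covariate 1, and leaving out single libraries 0 to 7. The 7 came without replicate 6 of enniatin B, where rs29 passed (limma adjusted p = 0.038, and 0.038 to 0.36 over single libraries left out), and the only other call was 1 without replicate 3 of beauvericin, LOC106562876. The count at an unadjusted p under 0.05 was 1761 with depth as a covariate and 1913 to 3341 without single libraries. For the difference between doses, DESeq2 gave 5 and leaving out single libraries 0. For the difference between tissues (1), DESeq2, voom and TMM scaling each gave 3, edgeR, a pseudocount of 10, no filter, no deepest libraries and depth as a covariate each 0, leaving out single libraries 0 to 3, and leaving out replicates 2 and 5 of enniatin B, chosen after seeing the data, 0. The cause was not tested.

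Between the 2 high dose groups in liver, replicate numbers do not pair the samples, with correlations of same-numbered deviations of -0.131 to 0.102. With the number alone as replicate block the counts were 0 between the high doses, 0 between doses and 0 between tissues. With group and number as the block, the count between tissues was also 0.

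None of the 20 named genes changed sign in any alternative, and 490 of their 500 values stayed on the same side of the threshold. Of the other 10 values, 9 were DESeq2 calls. These genes were picked for the smallest p in this contrast, and the alternatives reuse all or most of the same libraries. Kept signs could thus hardly fail to appear and are no further support. List medians moved by more than the spread between libraries in 8 of 725 values. That spread is the within-group SD of list means of single libraries, which leaving out 1 library can hardly exceed. The count is therefore no sign of stable lists. The median changed sign in 12 of 22 alternatives for the glucocorticoid list, 5 for the growth axis and 4 for glycolysis and gluconeogenesis. For the antiviral, cholesterol and inflammatory lists it changed sign in 0. A filter of 50 left no exocrine pancreas marker and gave no value for that list. Depth limits genes with low counts most.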
